A study of Homo sapiens with 2 samples.

Results

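The mRNA levels of 39 autophagy genes were examined in RNA-seq data of Huh7 cells, a human hepatocellular carcinoma cell line, after knockdown of BRF2, a subunit of an RNA polymerase III initiation factor. Huh7-NC cells received a control siRNA (si-NC) and Huh7-si cells an siRNA against BRF2 (si-BRF2), with 1 library of total RNA in each of the 2 conditions. The study compared these libraries to look for pathways downstream of BRF2 and went on to examine AMPK signaling, which acts on autophagy among other processes. The genes were taken by symbol from the deposited table of 61541 genes, where each of the 39 symbols had exactly 1 row, and each of the 39 had reads in both libraries. They cover the ULK and PI3K complexes, the ATG conjugation enzymes, the LC3 and GABARAP proteins, cargo receptors, the TFEB family and lysosomal membrane proteins. With 1 library per condition, no difference below has a replicate check, and both libraries come from 1 cell line. The study used a pair of siRNAs against BRF2 in cells, and the sources used here do not name which of them was sequenced.

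Autophagy delivers cytoplasm to the lysosome for digestion. The ULK kinase complex starts the process when nutrients or energy run low, a lipid kinase complex built on BECN1 marks the membrane, and lipid transfer and conjugation enzymes then build a double-membraned autophagosome coated with proteins of the ATG8 family. Receptors tether cargo to that coat, and the autophagosome fuses with the lysosome. AMPK activates the ULK complex and mTOR complex 1 holds it back, and the liver relies on autophagy during fasting. These are mRNA levels, and they do not measure the flow of autophagy itself.

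The Huh7-NC library held 22852648 estimated reads and the Huh7-si library 22089016. BRF2, the targeted gene, had 1281 reads in the control and 364 in the knockdown library (log2 fold change -1.77, 95% interval -1.94 to -1.60), which is in the direction of the labels. The hepatoma markers ALB, AFP, APOA1, APOB, TTR, SERPINA1, HNF4A and GPC3 each had at least 2679 reads in either library. Of 9 genes chosen as markers of other cell types, PTPRC, CDH5, VWF, KRT5 and HBB had between 0 and 5 reads, while LYZ (10663 and 9034 reads), CD68, PECAM1 and COL3A1 had more, and the part of these genes in the results was not tested. Fold changes are ratios of CPM, the reads of a gene scaled to the total of its library (counts per 1000000 reads). Where a pair of values is given, that of Huh7-NC comes first. Intervals are 95% exact Clopper-Pearson intervals, which like the exact binomial test cover counting error only and compare the 2 libraries, not the conditions.

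Most autophagy genes differed little between the libraries, with ULK1, ULK2, ATG14 and PIK3R4 as the members furthest up. Of the 39 genes, 1 (ULK2) passed a fold of 2 with an unadjusted p under 0.05 in the exact binomial test and was higher in Huh7-si, and 0 were lower. Over the 26379 genes with reads, 10.4% were called higher and 1.02% lower by the same rule. ULK2 had few reads, and among the 37 autophagy genes with at least 100 reads over both libraries 0 were called in either direction, where 7.45% of all 12978 such genes were called higher and 0.393% lower. At a fold of 1.5, ULK1, ULK2, ATG14 and PIK3R4 were called higher (3 of them among the 37) and 0 genes lower, against 20.8% higher and 3.89% lower among all genes with at least 100 reads. The 37 genes lay close together. A share of 67.6% of them stayed within a fold of 1.25 and 91.9% within a fold of 1.5, against 48.4% and 75.3% of all genes with at least 100 reads. Their median log2 fold change was -0.0014 (quartiles -0.13 and 0.29), and that of all such genes was 0.14 (quartiles -0.18 and 0.50). The share of all reads that the 39 genes took together was 0.368% in Huh7-NC and 0.379% in Huh7-si, and SQSTM1 alone held 34.2% and 32.5% of those.

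**Figure D1:**
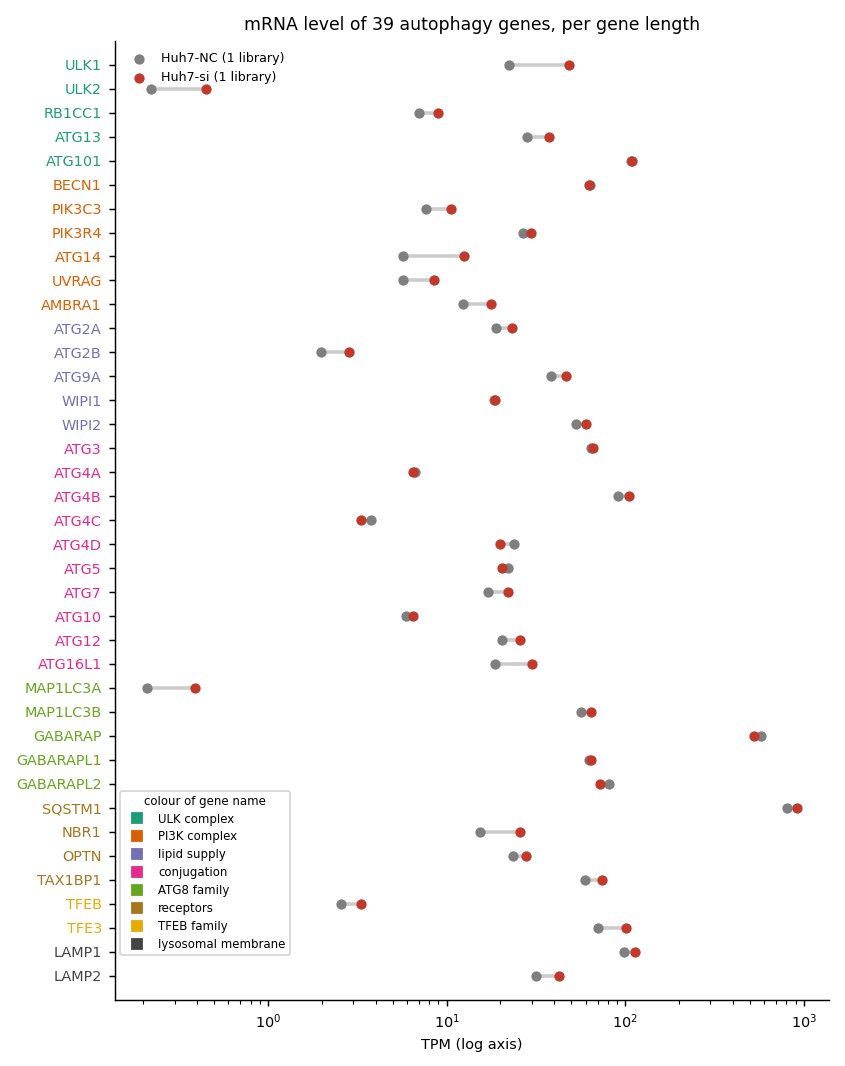
Levels of the 39 autophagy genes in TPM (a level scaled for gene length and library, log axis), with 1 point for the Huh7-NC library (grey) and 1 for the Huh7-si library (red); gene names are coloured by role. SQSTM1 (808 and 915 TPM) and GABARAP (576 and 526 TPM) stand highest, and ULK2 and MAP1LC3A lie under 1 TPM in both libraries.

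The direction of most of these genes depended on how the libraries were scaled. TMM scaling lowers every log2 fold change by 0.22, median-of-ratios scaling by 0.21 and upper-quartile scaling by 0.19, while the TPM columns give a higher log2 fold change for 36 of the 39 genes and a lower one for ULK2, PIK3R4 and ATG2A. Of the 39 genes, 8 were higher in Huh7-si under total reads, these other scalings, the TPM columns and relative to genes of like length, 7 were lower under all of these, and 24 changed sign with at least 1 of them. These counts were not made over all genes, so whether they are particular to the autophagy genes is not known. The 8 were ULK1, ULK2, ATG14, PIK3R4, ATG2A, NBR1, ATG16L1 and TFE3, and the 7 were ATG4A, ATG4C, ATG4D, ATG5, BECN1, GABARAP and GABARAPL2. Counted at any fold by an unadjusted p under 0.05 in the exact binomial test, 13 of the 37 genes with at least 100 reads were higher and 10 lower by total reads, against 46.1% and 26.2% of all such genes. With TMM scaling the counts were 6 and 21 of 37, against 29.5% and 42.2% of all. With median-of-ratios scaling they were 7 and 21, against 30.6% and 40.9%, and with upper-quartile scaling 9 and 21, against 32.2% and 39.3%. Relative to genes of like length they were 4 and 19, against 26.7% and 40% of all genes with at least 100 reads. ULK1, ULK2, ATG14 and PIK3R4 also had an unadjusted p under 0.05 in the exact binomial test at every scaling that has a test, as did 6 of the 7 lower genes, all but ATG4A. The share of all genes that pass at every scaling was not counted either.

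The differences of the 39 genes varied with gene length. The deposited lengths of the 39 run from 653 bases (GABARAPL1) to 13162 bases (ATG2B), and across the 37 genes with at least 100 reads log2 fold change and length had a Spearman's rho of 0.76. Across all 12978 genes with at least 100 reads it was 0.50, and genes are not independent replicates. The 20 longer autophagy genes had a median log2 fold change of 0.30, and the intervals of 13 of them lay above 0 and of 1 below 0. The 18 shorter ones with at least 10 reads had a median of -0.12, with 1 interval above 0 and 9 below. All 4 genes past a fold of 1.5 were among the longer ones. All genes with at least 100 reads were split likewise by length. Their lower quartile of log2 fold change lay above 0 in each length bin from 3959 bases up. Their median lay below 0 in each bin up to 2284 bases. The share of intervals above or below 0 was not counted by length over all genes. Each autophagy gene was therefore also set against the median of genes of like length. On that scale 10 of the 38 genes with at least 10 reads lay above the median and 28 below, with a median difference of -0.15. Genes with many reads lean the same way. Of all 12978 genes with at least 100 reads, 5559 lay above and 7411 below, with a median difference of -0.07. When the comparison genes were limited to those with at least 100 reads, 12 of the 38 autophagy genes lay above. The part of length in the single differences was not tested. For some genes the deposited length also differs from the length that the TPM columns imply. In Huh7-NC, GABARAPL1 (653 bases) had 1926 reads at 62.7 TPM and GABARAP (1319 bases) 6368 reads at 576 TPM. PIK3C3 (9415 bases) had 438 reads at 7.63 TPM and LAMP2 (2089 bases) 2098 reads at 31.9 TPM. In each pair the gene listed as shorter had more reads per TPM. Values relative to genes of like length hold for the deposited lengths only.

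**Figure D2:**
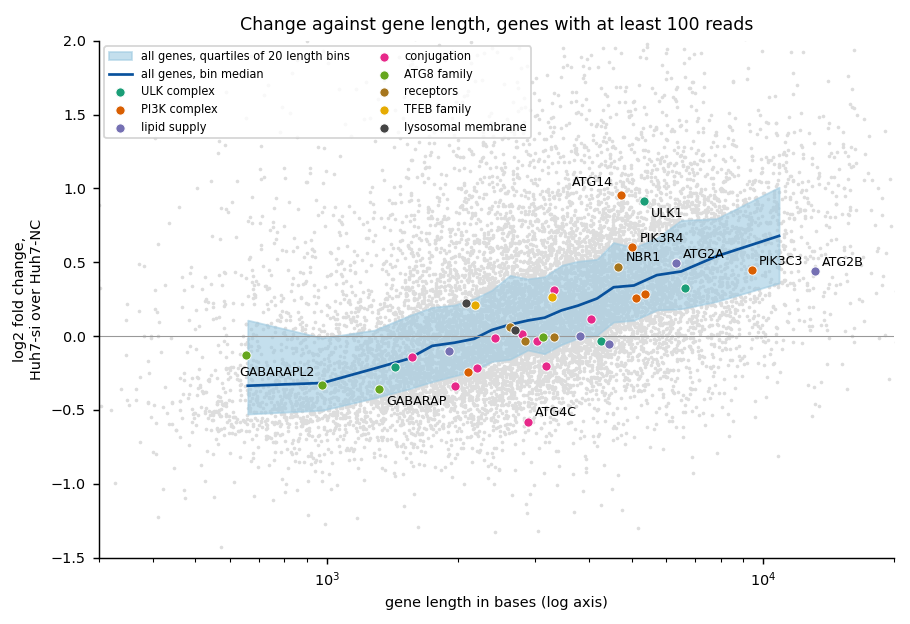
Log2 fold change (Huh7-si over Huh7-NC) against the deposited gene length in bases (log axis) for genes with at least 100 reads over both libraries. Grey points are all genes, the line and band are the median and quartiles of 20 length bins, and coloured points are the 37 autophagy genes by role; grey points beyond the vertical axis are not drawn. By the quartiles of their own length bin, ATG14, ULK1 and PIK3R4 (just) lie above the band, ATG4C, ATG4D, ATG5, ATG13, BECN1 and WIPI2 below it, and the other 28 inside.

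In the ULK complex, both kinase genes were higher in Huh7-si, and the 3 partner genes lay below genes of like length. ULK1 (ENSG00000177169), the kinase that AMPK and mTOR complex 1 phosphorylate, lies on chromosome 12 from 131894651 to 131923167 (plus strand, GENCODE release 29 on GRCh38). Its reads numbered 1887 in Huh7-NC and 3439 in Huh7-si, which is 82.6 and 156 CPM. The log2 fold change of 0.91 (95% interval 0.83 to 0.9967, p = 1.58e-113, exact binomial test) was a fold of 1.89, under the threshold of 2, and lay 0.50 above genes of like length. By TPM the level went from 22.3 to 48.3, a log2 fold change of 1.12, past a fold of 2. ULK2, its paralog, went from 9 to 24 reads, or 0.394 to 1.09 CPM. Its log2 fold change of 1.46 had a wide interval from 0.31 to 2.75 (p = 0.0082, exact binomial test between the libraries, 0.023 after Benjamini-Hochberg adjustment over all genes with reads). The call of ULK2 did not hold when a spread between cultures was assumed (coefficient of variation 0.4, edgeR's exact test, unadjusted p = 0.195). On the TPM scale ULK1 stood 101 times above ULK2 in Huh7-NC and 107 times in Huh7-si, so ULK1 held nearly all of the mRNA of this pair.

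The partner genes of the kinases lay closer to 0. RB1CC1, which encodes the large scaffold FIP200, had 618 and 748 reads, hence a log2 fold change of 0.32 (0.17 to 0.48), which was 0.11 below genes of like length. ATG13, the adaptor that mTOR complex 1 also phosphorylates, had 1909 and 1805 reads (log2 fold change -0.03, -0.13 to 0.06). ATG101, which stabilizes ATG13, had 2205 and 1847 reads (log2 fold change -0.21, -0.30 to -0.12), although by TPM its log2 fold change was 0.02. A ratio between members needs no scaling of the libraries, and the pairs for such ratios were chosen after their values were seen. The trend with gene length still enters a ratio wherever the paired genes differ in length. The reads of ULK1 per read of ATG101 went from 0.856 to 1.86, a change of 2.18 times (95% exact interval 2.00 to 2.37). Genes of like length had a median log2 fold change of 0.42 for ULK1 and -0.09 for ATG101.

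In the PI3K complex, ATG14 was furthest up while BECN1 was lower. The complex makes the lipid that recruits the later factors. It exists in 2 forms, of which ATG14 defines the form that acts at the start of autophagosome formation and UVRAG the form that acts on endosomes and on later steps. ATG14 (ENSG00000126775; chromosome 14, 55366392 to 55411858, minus strand, GENCODE release 29 on GRCh38) was covered by 500 reads in Huh7-NC and by 937 in Huh7-si, which is 21.9 and 42.4 CPM. Its log2 fold change of 0.96 (0.80 to 1.11, p = 1.84e-34, exact binomial test) was a fold of 1.94, just under the threshold, and lay 0.57 above genes of like length. By TPM it went from 5.69 to 12.6, a log2 fold change of 1.14. UVRAG had 338 and 390 reads, hence a log2 fold change of 0.26 (0.04 to 0.47), with a sign that turns relative to genes of like length (-0.16). The ratio of ATG14 to UVRAG reads went from 1.48 to 2.40, a change of 1.62 times (1.35 to 1.96), and by TPM from 0.998 to 1.47.

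Among the core subunits of the lipid kinase, PIK3R4 was higher and BECN1 lower. BECN1, the regulatory subunit shared by both forms, had 1912 and 1561 reads, hence a log2 fold change of -0.24 (-0.34 to -0.15), which was 0.31 below genes of like length and -0.013 by TPM. It overlaps PSME3, with 6239 and 5463 reads, on the opposite strand. The reads of ATG14 per read of BECN1 went from 0.261 to 0.600, a change of 2.30 times (2.02 to 2.61). PIK3R4, the pseudokinase scaffold VPS15, had 717 and 1052 reads, hence a log2 fold change of 0.60 (0.46 to 0.74), a fold of 1.52. By TPM the change of PIK3R4 was 0.14 only. PIK3C3, the catalytic subunit VPS34, had 438 and 578 reads (log2 fold change 0.45, 0.27 to 0.63), which was 0.22 below genes of like length. AMBRA1, which links the ULK and PI3K complexes, had 804 and 948 reads (log2 fold change 0.29, 0.15 to 0.42), which was 0.13 below genes of like length.

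**Figure D3:**
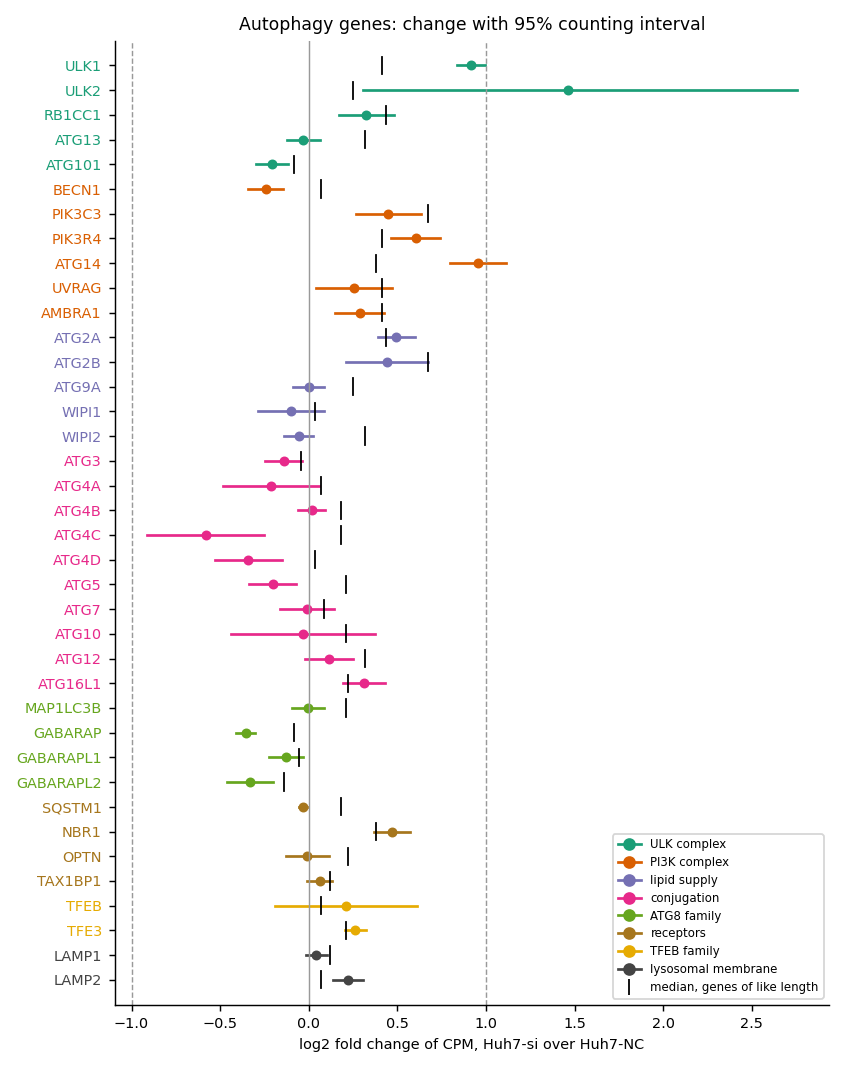
Log2 fold change of CPM (Huh7-si over Huh7-NC) of the 38 autophagy genes with at least 10 reads; points are the single comparison of 2 libraries, lines are 95% counting intervals, black ticks are the median of genes of like length, and dashed lines mark a fold of 2. The intervals of ATG14 and ULK2 cross the dashed line and that of ULK1 ends at it, and most points lie left of their black tick.

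Among the genes for lipid supply, the ATG2 genes were higher and the other 3 were level by total reads. ATG2A and ATG2B, which bridge membranes and pass lipids to the growing autophagosome, are paralogs. ATG2A had 1296 and 1763 reads, and ATG2B had 279 and 366. Their log2 fold changes of 0.49 (0.39 to 0.60) and 0.44 (0.21 to 0.67) lay 0.06 above (p = 0.266, exact binomial test) and 0.23 below genes of like length. The ratio of ATG2A to ATG2B reads was 4.65 in the control and 4.82 in the knockdown library, a change of 1.04 times with an interval that holds 1 (0.87 to 1.24). ATG9A, the scramblase of the seed vesicles, had 2223 and 2147 reads, hence a log2 fold change of -0.0014 (-0.09 to 0.09). WIPI1 and WIPI2, which read the lipid made by the PI3K complex, are paralogs too. WIPI1 had 502 and 453 reads, and WIPI2 had 2434 and 2262. Their log2 fold changes of -0.10 (-0.29 to 0.09) and -0.06 (-0.14 to 0.03) were within counting error at this depth by total reads. By TPM, WIPI1, WIPI2 and ATG9A turned to above 0 (0.03, 0.19 and 0.28). With TMM scaling they lay at -0.32, -0.28 and -0.23, each with an unadjusted p under 0.05 in the exact binomial test. Relative to genes of like length they lay at -0.14, -0.37 and -0.25, and WIPI2 and ATG9A had such a p there too.

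The conjugation genes were mostly level or lower by total reads. They attach ATG12 to ATG5, and attach ATG8 proteins to lipid. Of the 10 genes, 9 lay below genes of like length, and 4 intervals lay below 0 and 1 above. Of all 12978 genes with at least 100 reads, 7411 lay below genes of like length, and 3389 intervals lay below 0 and 5960 above. Against genes of its length with at least 100 reads, ATG3 (-0.14) lay just above the median (-0.15). ATG16L1, which brings the ATG12-ATG5 conjugate to the membrane, had the only interval above 0 of the 10 genes. It had 1068 and 1281 reads, hence a log2 fold change of 0.31 (0.19 to 0.43), which was 0.087 with TMM scaling (p = 0.148, exact binomial test). Its partner ATG5 had 1055 and 885 reads (log2 fold change -0.20, -0.33 to -0.07). The ratio of ATG16L1 to ATG5 reads went from 1.01 to 1.45, a change of 1.43 times (1.26 to 1.62). ATG12 had 870 and 911 reads (log2 fold change 0.12, -0.02 to 0.25). ATG7, the activating enzyme of both conjugation systems, had 727 and 697 reads (log2 fold change -0.01, -0.16 to 0.14). ATG3 and ATG10, the conjugating enzymes for ATG8 proteins and for ATG12, had log2 fold changes of -0.14 (-0.25 to -0.04) and -0.03 (-0.44 to 0.37). ATG10 had only 107 and 101 reads and lies opposite the highly expressed RPS23 in GENCODE release 29, and the sources used here do not give the strandedness of the counting.

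The ATG4 proteases, which trim ATG8 proteins before conjugation and release them from membranes, held the lowest value of all 39 genes. ATG4C was covered by 198 reads in Huh7-NC and by 128 in Huh7-si. Its log2 fold change of -0.58 (-0.91 to -0.25, p = 0.000379, exact binomial test) was a 1.495-fold lower level, just short of the fold of 1.5, and lay 0.76 below genes of like length. By TPM the log2 fold change of ATG4C was only -0.20, and ATG4D was the lowest of the 39 at -0.26. ATG4D had 529 and 404 reads (log2 fold change -0.34, -0.53 to -0.15), beside KRI1 on the opposite strand with 2198 and 2366 reads. ATG4A had 253 and 211 reads (log2 fold change -0.21, -0.48 to 0.06). ATG4B, the main processing enzyme for LC3, had 2761 and 2698 reads (log2 fold change 0.02, -0.06 to 0.09). Its share of the summed TPM of the ATG4 genes was 72.7% in the control library and 77.96% in the knockdown library. The ratio of ATG4B to ATG4C reads went from 13.9 to 21.1, a change of 1.51 times (1.20 to 1.92).

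In the ATG8 family, whose members coat the autophagosome and bind receptors, GABARAP and GABARAPL2 were lower. MAP1LC3B, the usual marker of autophagosomes, was level by total reads and lay at -0.23 with TMM scaling. GABARAP had 6368 and 4806 reads, or 279 and 218 CPM, and a log2 fold change of -0.36 (-0.41 to -0.30). GABARAPL2 had 1155 and 887 reads (log2 fold change -0.33, -0.46 to -0.20), and GABARAPL1 had 1926 and 1701 reads (log2 fold change -0.13, -0.23 to -0.04). MAP1LC3B had 2083 and 2009 reads (log2 fold change -0.0033, -0.09 to 0.09). The coding sequence of MAP1LC3B is nearly that of MAP1LC3B2, so its reads could be split between them, but MAP1LC3B2 was assigned only 1.1 and 2.28 estimated reads. The 4 genes other than MAP1LC3A lay below genes of like length, by 0.08 to 0.27. Against genes of its length with at least 100 reads, GABARAPL1 (-0.13) lay above the median of -0.34. GABARAPL2 (-0.33) lay close to the median of such genes of its own length (-0.32), and GABARAP (-0.36) lay below its own (-0.22). All 4 lay inside the quartiles of such genes of their own length. By TPM the log2 fold changes of GABARAP and GABARAPL2 were -0.13 and -0.18, while those of GABARAPL1 and MAP1LC3B turned to 0.03 and 0.19. MAP1LC3A had 3 reads in each library, which is no more than the 3 reads that a count of 0 allows. Per length, GABARAP was the main member, with 74.2% of the family's summed TPM in Huh7-NC and 72.4% in Huh7-si, against 7.25% and 8.83% for MAP1LC3B. The reads of GABARAP per read of MAP1LC3B went from 3.06 to 2.39, a change of 0.783 times (0.728 to 0.841). Genes of like length also differed, with a median log2 fold change of -0.09 for GABARAP and 0.21 for MAP1LC3B. Among genes with at least 100 reads these medians were -0.22 and 0.12. The part of length in this ratio was not tested.

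Among the cargo receptors, NBR1 had the highest log2 fold change. NBR1, an ancient receptor for ubiquitinated cargo, had 1326 and 1775 reads, hence a log2 fold change of 0.47 (0.37 to 0.57), but only 0.09 above genes of like length (p = 0.0860, exact binomial test). SQSTM1 (p62), which binds ubiquitin and LC3 and is itself degraded by autophagy, had 28755 and 27189 reads (log2 fold change -0.03, -0.06 to -0.01). With so many reads this interval excludes 0, although the fold was 0.978. The reads of NBR1 per 1 read of SQSTM1 went from 0.0461 to 0.0653, a change of 1.42 times (1.32 to 1.52). OPTN, a receptor in the clearance of mitochondria and bacteria, had 1134 and 1089 reads (log2 fold change -0.01, -0.13 to 0.11), and TAX1BP1 had 3085 and 3110 reads (log2 fold change 0.06, -0.01 to 0.13). SQSTM1 overlaps MGAT4B and MRNIP on the opposite strand. In all, 17 of the 39 genes overlap another gene with at least 10 reads, 2 of them on the same strand (ATG9A and GABARAP), and how shared reads were assigned is not given in the sources used here.

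TFEB and TFE3 are transcription factors that mTOR complex 1 keeps in the cytosol and that switch on lysosomal and autophagy genes when it is inactive. TFE3 was the main form in these cells, at 70.8 TPM in Huh7-NC and 100 TPM in Huh7-si, against 2.55 and 3.33 TPM for TFEB. TFE3 had 4204 and 4875 reads, hence a log2 fold change of 0.26 (0.20 to 0.32). The interval's distance from 0 was lost for TFE3 on other scales, with 0.038 under TMM (p = 0.211, exact binomial test) and 0.054 relative to genes of like length (p = 0.0792, exact binomial test). TFEB had 102 and 114 reads (log2 fold change 0.21, -0.19 to 0.61), a difference not detectable at this depth and -0.015 with TMM scaling. The ratio of TFE3 to TFEB reads was 41.2 and 42.8, a change of 1.04 times (0.78 to 1.37). LAMP1 and LAMP2, abundant glycoproteins of the lysosomal membrane, are also paralogs. LAMP1 had 4750 and 4729 reads, and LAMP2 had 2098 and 2364. Their log2 fold changes were 0.04 (-0.02 to 0.10) and 0.22 (0.14 to 0.31), and with TMM scaling they were -0.18 and -0.0034. LAMP2 is the form needed for autophagosomes to mature, and its reads per read of LAMP1 went from 0.442 to 0.4999, a change of 1.13 times (1.05 to 1.22).

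TFEB and TFE3 bind E-boxes of the letters CACGTG, often within the longer TCACGTGA, both of which read the same on either strand. Every TCACGTGA holds a CACGTG. RefSeq promoters (GRCh38.p14, 250 bases before to 50 after the start) were found for 34 of the 39 genes, with none for RB1CC1, UVRAG, ATG4D, MAP1LC3A and LAMP2. The 34 genes have 44 promoters in the table, of which 3 (6.82%) held CACGTG, against 7.26% of all 35116 promoters, and 2 (4.55%) held TCACGTGA, against 0.98%. The 3 promoters with CACGTG belong to 3 genes and are shown because they place the box beside different values, namely ATG14 (log2 fold change 0.96), LAMP1 (0.04) and ATG3 (-0.14), and ULK1 (0.91) is shown as a promoter of 300 bases without the box. Capitals mark each CACGTG, and sequences run 5′ to 3′ on the strand of the gene, chr14:55411781-55412080 (minus) for ATG14, chr13:113296989-113297288 (plus) for LAMP1, chr3:112561913-112562212 (minus) for ATG3 and chr12:131894372-131894671 (plus) for ULK1.
ATG14: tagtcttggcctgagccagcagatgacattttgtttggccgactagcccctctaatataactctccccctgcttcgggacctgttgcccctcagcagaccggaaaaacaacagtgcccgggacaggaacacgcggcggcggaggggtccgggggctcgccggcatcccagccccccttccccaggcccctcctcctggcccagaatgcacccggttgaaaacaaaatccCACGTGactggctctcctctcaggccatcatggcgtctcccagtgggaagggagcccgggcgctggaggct
LAMP1: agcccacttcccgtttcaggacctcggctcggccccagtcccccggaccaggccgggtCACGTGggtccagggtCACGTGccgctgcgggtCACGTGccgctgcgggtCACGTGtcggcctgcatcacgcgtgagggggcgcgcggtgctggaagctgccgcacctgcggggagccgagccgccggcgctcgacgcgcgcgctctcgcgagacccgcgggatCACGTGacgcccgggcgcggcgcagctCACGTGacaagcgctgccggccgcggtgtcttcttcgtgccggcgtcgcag
ATG3: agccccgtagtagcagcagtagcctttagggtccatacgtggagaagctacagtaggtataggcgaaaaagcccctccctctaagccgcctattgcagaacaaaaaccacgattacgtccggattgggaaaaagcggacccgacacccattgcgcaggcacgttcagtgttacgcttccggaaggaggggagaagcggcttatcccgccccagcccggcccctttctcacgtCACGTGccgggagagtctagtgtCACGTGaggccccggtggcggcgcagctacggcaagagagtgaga
ULK1: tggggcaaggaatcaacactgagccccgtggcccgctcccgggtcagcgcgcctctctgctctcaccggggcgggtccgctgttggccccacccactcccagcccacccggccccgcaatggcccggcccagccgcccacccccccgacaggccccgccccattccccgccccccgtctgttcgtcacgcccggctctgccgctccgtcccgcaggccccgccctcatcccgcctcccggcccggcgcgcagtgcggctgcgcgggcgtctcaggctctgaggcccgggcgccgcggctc
The single box of ATG14 starts 21 bases before the start site. LAMP1 held 6 boxes, 2 of them as TCACGTGA, and was the only 1 of the 35116 promoters with 6 or more. ATG3 held 2, which start 18 bases before the start site and at base 6 of the transcript, and 1 of them lies in a TCACGTGA. A match is a description of the letters, and genes with the box had values from -0.14 to 0.96.

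Other genes of the pathway were counted from lists written with earlier results of these data known. Of 20 further autophagy genes, 2 were called higher at a fold of 2 and 0 lower, beside the 10.4% and 1.02% of all genes with reads, so the share called is near that of all genes. The 18 of them that had 10 or more reads showed a median log2 fold change of 0.44, against 0.21 over all genes with at least 10 reads. Relative to genes of like length, 13 of these 18 lay above the median and 5 below, with a median difference of 0.17. The called pair were ATG16L2, a paralog of ATG16L1, which rose from 182 to 635 reads (log2 fold change 1.85, 1.61 to 2.10), and WDFY3, a very large scaffold for clearance of aggregates, which rose from 354 to 793 reads (1.21, 1.03 to 1.40). ATG16L2 lay 1.78 above genes of like length and WDFY3 0.54. Of 14 genes for amino acid sensing upstream of TFEB and ULK1, 1 was called higher and 0 lower, a share no larger than the 10.4% called higher among all genes with reads. It was FNIP1, a partner of folliculin, which rose from 201 to 433 reads (1.16, 0.91 to 1.40) and lay 0.72 above genes of like length.

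The lists for other cargo receptors and for the lysosome held no called gene. Of 14 other cargo receptors, 13 genes for fusion with the lysosome, 16 for the proton pump (V-ATPase) and 27 for lysosomal enzymes and membrane proteins, 0 were called at a fold of 2 in either direction. Among all genes with reads 10.4% were called higher and 1.02% lower, and among those with at least 100 reads 7.45% and 0.393%. Their median log2 fold changes were 0.04, 0.02, -0.10 and 0.15, against 0.21 over all genes with at least 10 reads. Relative to genes of like length, 13 of the 16 V-ATPase genes and 10 of the 13 fusion genes lay below the median, and 18 of the 27 genes of lysosomal enzymes and membrane proteins lay above it. Of all 12978 genes with at least 100 reads, 5559 lay above and 7411 below.

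**Figure D4:**
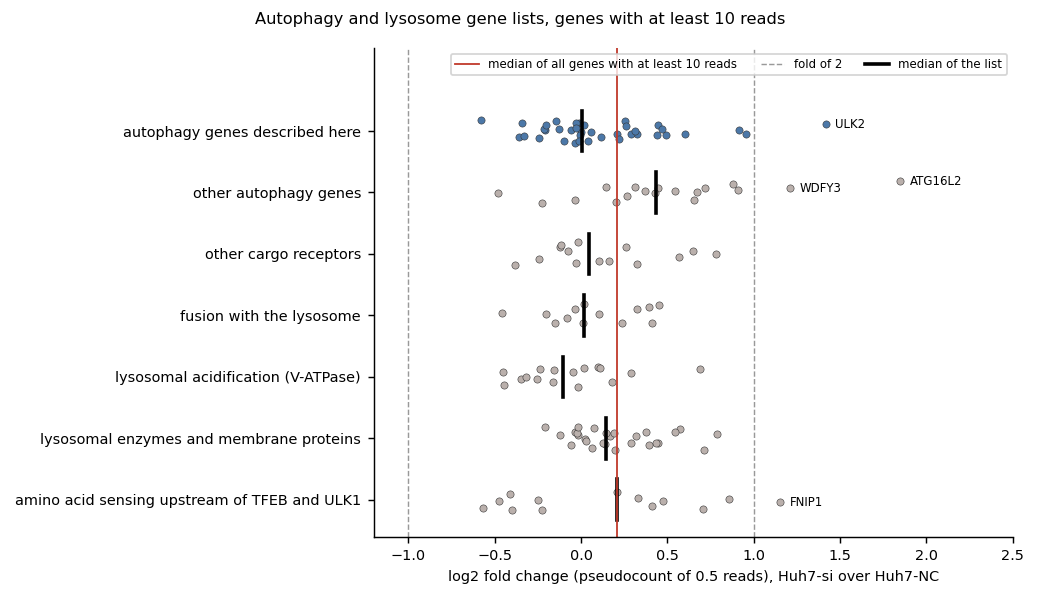
Log2 fold change (pseudocount of 0.5 reads, Huh7-si over Huh7-NC) of the autophagy genes described here and of 6 further lists, genes with at least 10 reads. Each point is a gene, black bars are list medians, the red line is the median of all genes (0.21), dashed lines mark a fold of 2, and genes called at a fold of 2 are named. The bar of the genes described here (0.0072) lies left of the red line and that of the other autophagy genes (0.44) right of it.

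The TPM columns and the read counts gave different sizes of change for most members, with 12 of the 39 turning sign, and for a few of them by more than the shift common to all genes. A TPM divides the reads of a gene by a length, so the ratio of reads to TPM would shift equally for all genes if every length were the same in both libraries. Over the genes with at least 100 reads, the log2 ratio of Huh7-si to Huh7-NC of this quotient had quartiles 0.08 below and 0.06 above its median. PIK3R4 lay 0.65 above that median and ATG2A 0.38 above, while ATG13 lay 0.26, ATG4C 0.20, ATG16L1 0.19 and ATG7 0.19 below. For ULK1 and ATG14 the departure was -0.018 and -0.0021, so that reads and TPM gave a like change after the common shift.

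**Figure D5:**
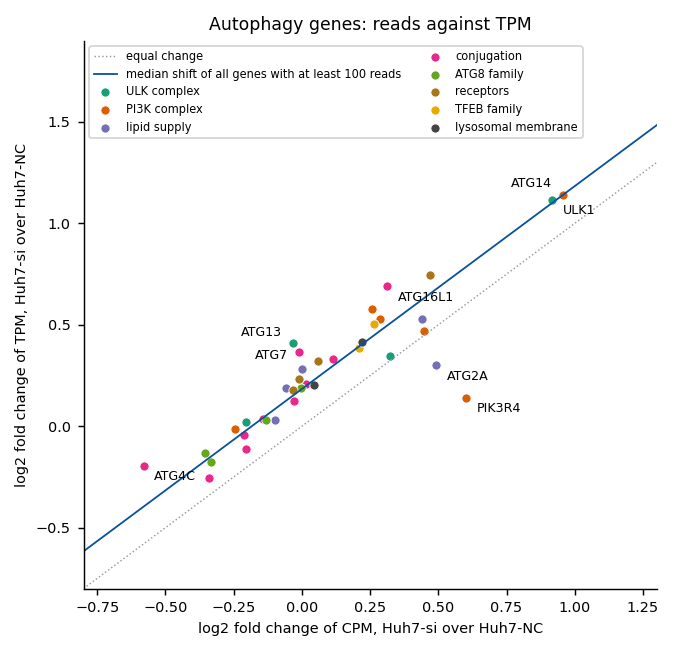
Log2 fold change of TPM against log2 fold change of CPM (Huh7-si over Huh7-NC) for the 37 autophagy genes with at least 100 reads, coloured by role; the solid line is the median shift of all genes with at least 100 reads and the dotted line marks equal change. PIK3R4 and ATG2A lie below the solid line and ATG13 and ATG7 above it, while ULK1 and ATG14 lie on it.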

How the data were processed

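RNA of 1 Huh7-NC and 1 Huh7-si library was sequenced. The authors deposited estimated counts and TPM (a share of transcripts scaled for length and library) per gene, with gene lengths and their own fold changes and p-values, which were not used. The submitters' processing notes name Bowtie2 2.0.6, TopHat2 2.0.12 and GRCh37, with no role stated, and the tool that estimated the counts is not given in the sources used here. The labels describe the cells as infected with siRNA. Positions come from GENCODE release 29 (GRCh38), where 94.8% of the gene identifiers and all 39 members were found.

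Counts were rounded and compared as CPM of total reads by a two-sided exact binomial test (SciPy 1.17.1). Calls needed a fold of 2 or more together with p under 0.05, unadjusted. Medians of log2 fold change used a pseudocount of 0.5 reads and genes with at least 10 reads over both libraries. The median of genes of like length was taken over 20 length bins. TMM (edgeR 4.0.16), median-of-ratios (DESeq2 1.42.0) and upper-quartile scaling, the TPM columns, other thresholds and an assumed biological coefficient of variation were tried. A count of 0 allows up to 3 reads, or 0.131 and 0.136 CPM in the control and knockdown libraries. In simulated reads for this comparison (26379 genes, no added spread), 200 of 200 genes changed 4-fold were called. The changed genes were drawn from those with at least 100 reads over both libraries. The simulation therefore does not show how often smaller changes, or changes of genes with few reads, are called. The 39 genes, the lists and their tests were chosen with earlier results of these data known. All 39 genes could be named, values being given for those past a fold of 1.5, the extremes of each role and the paralog families, and for the lists at most 8 genes past a fold of 2. Members named beyond these were added after their values were seen.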

Additional observations from a re-analysis of the deposited data

How the results depend on the processing

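With 1 library per condition neither leaving out a replicate nor an estimate of biological spread is possible. No paired analysis was possible because each condition has 1 library. BRF2 was lower under each alternative tried, with a log2 fold change of -1.59 by TPM against -1.77 by reads. The number of autophagy genes called higher was 1 by the rule used, also with TMM, median-of-ratios and upper-quartile scaling, relative to genes of like length and after Benjamini-Hochberg adjustment. It was 3 by TPM (no test), 4 at a fold of 1.5, 0 with at least 10 reads in each library, 0 with at least 100 reads over both (added after seeing the data) and 0 when edgeR's exact test was given a coefficient of variation of 0.4, where the p was 0.195 for ULK2, 0.277 for ULK1, 0.259 for ATG14, 0.474 for PIK3R4 and 0.499 for ATG4C. The number called lower was 0 under each of these. At any fold 14 of the 39 genes were above 0 and 10 below with an unadjusted p under 0.05 in the exact binomial test by total reads. The counts were 7 and 21 under TMM, 8 and 21 under median of ratios, 10 and 21 under the upper quartile, and 5 and 19 relative to genes of like length. Among all genes with at least 100 reads the shares above and below were 46.1% and 26.2% by total reads and 29.5% and 42.2% under TMM. They were 30.6% and 40.9% under median of ratios, 32.2% and 39.3% under the upper quartile, and 26.7% and 40% relative to genes of like length. The median log2 fold change of 0.0072 became -0.22 with TMM, -0.20 with median of ratios, -0.18 with the upper quartile, 0.26 by TPM and -0.15 relative to genes of like length. By TPM the sign turned for ATG13 (0.41), ATG101 (0.022), ATG9A (0.28), WIPI1 (0.030), WIPI2 (0.19), ATG3 (0.038), ATG7 (0.36), ATG10 (0.13), MAP1LC3B (0.19), GABARAPL1 (0.031), SQSTM1 (0.18) and OPTN (0.23). Relative to genes of like length it turned for RB1CC1 (-0.11), PIK3C3 (-0.22), UVRAG (-0.16), AMBRA1 (-0.13), ATG2B (-0.23), ATG4B (-0.17), ATG12 (-0.20), TAX1BP1 (-0.060) and LAMP1 (-0.078). With TMM it turned for ATG4B (-0.21), ATG12 (-0.11), MAP1LC3A (-0.18), TAX1BP1 (-0.16), TFEB (-0.015), LAMP1 (-0.18) and LAMP2 (-0.0034), with median of ratios for ATG4B (-0.19), ATG12 (-0.092), MAP1LC3A (-0.16), TAX1BP1 (-0.15) and LAMP1 (-0.16), and with the upper quartile for ATG4B (-0.17), ATG12 (-0.071), MAP1LC3A (-0.14), TAX1BP1 (-0.13) and LAMP1 (-0.14). Each of these turns follows from the scale used, and the cause of the difference between scales was not tested. A pseudocount of 1 CPM turned none of the 39.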
